A study of Mus musculus with 60 samples.

Results

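The 9 genes described here encode transcription factors of cortical and hippocampal excitatory neurons: Neurod2, Neurod6, Bcl11a, Bcl11b, Fezf2, Zbtb20, Nfia, Nfib and Zbtb18. They were followed through 12 lists of CUT&RUN-seq peaks, and each peak was taken as a member if its listed symbol was 1 of these names. This gave 663 of the 256375 peaks in all lists, 644 of 155961 for H4K8ac and 19 of 100414 for H3K27me3. CUT&RUN-seq cuts and releases the DNA held by an antibody in intact nuclei. H4K8ac, acetylation of lysine 8 of histone H4, is a mark of active genes and their enhancers, and H3K27me3, trimethylation of lysine 27 of histone H3, is laid down by Polycomb complexes at silenced genes.

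Nuclei were from the hippocampus of male Emx1-NuTRAP mice, in which Cre driven from the Emx1 locus switches on a nuclear and ribosomal tag. Emx1 is active in the forebrain excitatory lineage and its progenitors, so the tagged nuclei can include lineages other than mature excitatory neurons, and both conditions carried the same alleles. Exercised mice had free access to a running wheel from postnatal day 21 to 41 and sedentary mice had none. Each condition was sampled in 3 arms: SIT, in which chromatin and RNA were isolated together from both hippocampi (4 libraries per group by the labels), and separate isolation from the left or from the right hippocampus (3 libraries per group each). Each list is the pooled product of its group, with positions and widths of peaks alone, so there is no spread between animals, the depth behind each list is not given, although the methods state a minimum per library, and each list counts as 1 unit. More nuclei with a mark and more of the mark per nucleus cannot be told apart in such pooled material.

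In development, proneural basic helix-loop-helix factors such as Neurod2 and Neurod6 bind E-boxes and drive newborn excitatory neurons to mature. Zinc finger factors, among them Bcl11a, Bcl11b, Fezf2, Zbtb18 and Zbtb20, then set the layer, projection or hippocampal subfield that the neurons take, and the NFI proteins Nfia and Nfib support the growth of the hippocampus and the differentiation of neurons and glia. Several of these genes stay expressed in the juvenile and adult hippocampus.

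The lists differed in length before any gene was considered. H4K8ac lists held 12168 to 38136 peaks and H3K27me3 lists 9899 to 25693. Exercised H4K8ac lists covered 1.73 times the bases of the sedentary list in SIT, 0.391 times in the left and 0.437 times in the right arm, and the study's methods excluded exercised H4K8ac libraries of both SIT and separate isolation, so fewer may stand behind those lists than the labels give. Among marker genes fixed for this purpose, H4K8ac peaks were listed for 4 to 7 of 8 excitatory neuron markers, 1 to 3 of 12 interneuron lineage factors and 3 to 6 of 14 glial, microglial and vascular genes per list. H3K27me3 peaks were listed for 1 to 2, 9 to 11 and 6 to 7 of the same genes. Emx1 itself had H4K8ac in 6 of 6 lists and H3K27me3 in 5 of 6.

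All 9 genes carried H4K8ac in each of the 6 H4K8ac lists, whereas 24.1% of the genes with any H4K8ac peak did so. For H3K27me3 few were listed. Nfib was listed in 6 of 6 H3K27me3 lists and Fezf2 in 1, and the other 7 genes had no H3K27me3 peak under their own symbol in any list; 38.0% of the genes with any H3K27me3 peak were in all 6. Of 24 other excitatory neuron factors fixed as a list, 11 had H4K8ac in 6 of 6 lists and 7 in none, and 11 had H3K27me3 in 6 of 6 lists and 6 in none. Of the relatives of the 9 genes, Neurod1 had H4K8ac in 6 lists and H3K27me3 in none, as did Nfix, with 33.9 to 80.5 kb covered by H4K8ac, while Nfic had H4K8ac in 6 lists and H3K27me3 in 5. The 9 genes were chosen with earlier results of these data known, so these counts describe them and test nothing.

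**Figure D1:**
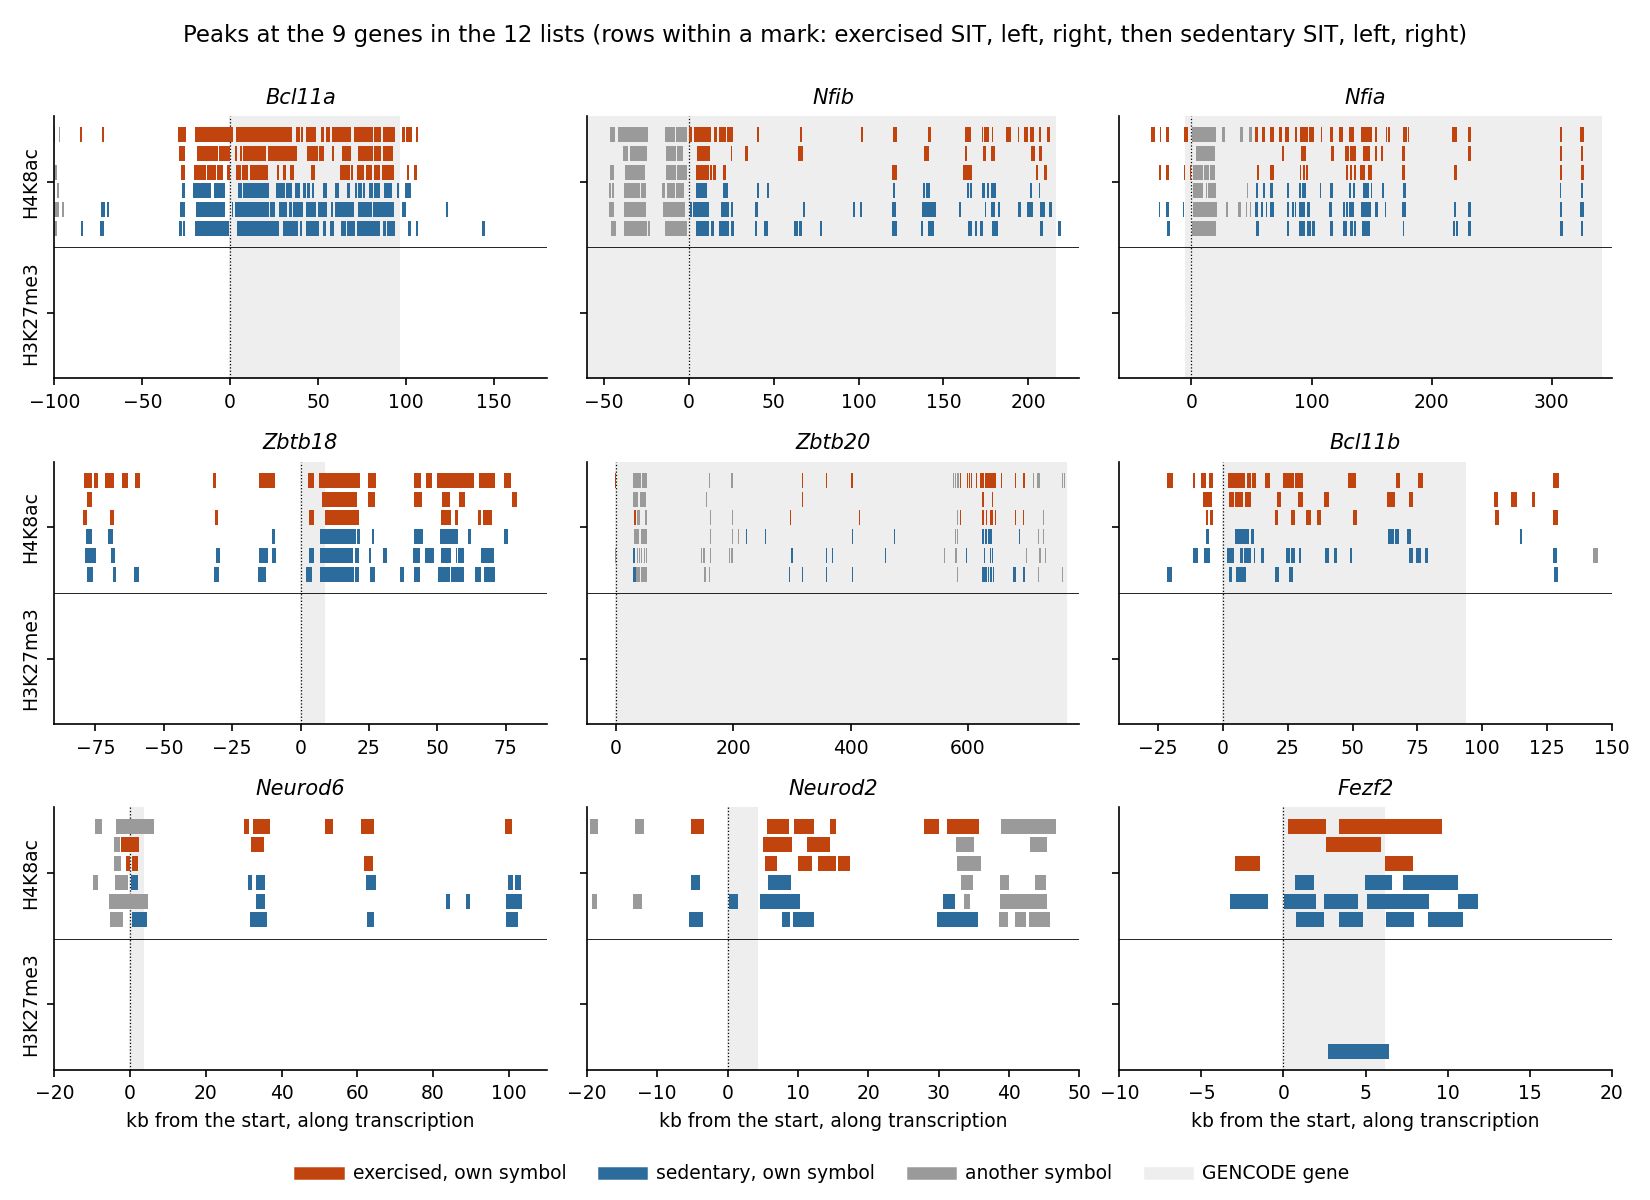
Peaks at each gene, as bars along the distance in kb from its start, the inner one for Nfia and Nfib, in the direction of transcription (dotted line), for the 6 H4K8ac lists (upper rows) and the 6 H3K27me3 lists (lower rows); exercised peaks are red, sedentary peaks blue, peaks listed under another symbol grey, and the GENCODE gene is shaded. H4K8ac fills most of Bcl11a, lies mostly downstream of Neurod2, is densest past the end of Zbtb18 and is scattered through Zbtb20, and in these windows H3K27me3 appears in 1 list at Fezf2, since the Nfib peaks lie farther upstream.

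H4K8ac peaks of the 9 genes were somewhat wider than the average peak, with a median of 1941 bp against 1620 bp for all H4K8ac peaks. By annotation 49.5% were intronic against 37.4% of all H4K8ac peaks, 16.6% were promoter peaks (within 3 kb of a start) against 23.5%, and 21.6% were distal intergenic against 28.3%. The genes differed among themselves in this respect. Introns held 94 of 121 peaks of Nfia, 81 of 110 of Nfib and 40 of 65 of Bcl11b, whereas 21 of 22 peaks of Neurod2, 19 of 24 of Neurod6 and 51 of 72 of Zbtb18 were distal intergenic, and 12 of 17 of Fezf2 were promoter peaks. Neurod2, Neurod6, Fezf2 and Zbtb18 are the short genes of the set, with 3.44 to 8.41 kb each.

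Neurod2 (chr11:98325415-98329648, minus strand, all coordinates GRCm38) encodes a factor that drives cortical and hippocampal neurons to mature and shapes their synapses. H4K8ac covered 15.3 kb in the exercised and 4.63 kb in the sedentary SIT list, 7.36 and 8.68 kb in the left lists, and 7967 and 11952 bp in the right lists. By these own-symbol peaks the exercised list was the higher in SIT and the lower in both other arms. With peaks of any symbol in the same regions the left lists turned, with 9884 bp exercised and 9526 bp sedentary, and the right lists held 11432 and 11952 bp. None of the 6 lists had a peak over the start of the gene, and the nearest peak edge was 254 bp away in the sedentary left list and 3337 to 5318 bp away in the other 5. Most of the acetylation lay downstream of the gene, with single peaks upstream in both SIT lists and the sedentary right list. A region of 10865 bp at chr11:98314183-98325047, whose peaks began 4601 to 14579 bp past the start and were annotated as distal intergenic, was touched by 6 of 6 lists, but no base of it was in all of them.

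A more distant region at chr11:98293632-98301748 was also in 6 of 6 lists, with 846 bp shared by all, although in some lists its peaks carried the symbol of the neighbouring microRNA gene Mir5119. The middle 300 bases of that shared stretch (chr11:98295487-98295786, plus strand) are printed because they are the Neurod2 sequence under H4K8ac in every list, beside the 250 bases before the RefSeq start (chr11:98329646-98329895, minus strand), which no peak of either mark touched. Capitals here and below mark 3 motifs on either strand: CAGATG, an E-box bound by NEUROD factors whose reverse CATCTG lies in the site of ZBTB18, TTGGC, the half-site of NFI proteins, and TGACCA, a motif bound by BCL11A. In windows of this length from 2787 shared stretches of H4K8ac, 22.3% hold CAGATG, 43.0% TTGGC and 12.5% TGACCA, and among 32851 RefSeq promoters of 250 bases 14.4, 41.5 and 11.4% do.
Neurod2 downstream window: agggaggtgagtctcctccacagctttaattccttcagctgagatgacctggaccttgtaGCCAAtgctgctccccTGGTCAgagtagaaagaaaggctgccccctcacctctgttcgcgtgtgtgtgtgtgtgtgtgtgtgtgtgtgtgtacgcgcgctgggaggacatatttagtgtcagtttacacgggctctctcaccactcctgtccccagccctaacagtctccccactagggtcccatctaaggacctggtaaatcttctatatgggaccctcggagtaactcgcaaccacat
Neurod2 promoter: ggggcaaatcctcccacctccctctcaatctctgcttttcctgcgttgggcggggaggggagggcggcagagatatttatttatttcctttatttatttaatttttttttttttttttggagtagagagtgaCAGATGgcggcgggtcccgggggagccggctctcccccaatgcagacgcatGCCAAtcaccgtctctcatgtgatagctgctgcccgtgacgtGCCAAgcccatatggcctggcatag
The downstream window held 1 NFI half-site and 1 BCL11A motif, and the promoter held 1 CAGATG and 2 NFI half-sites. Matches of so few letters are common and describe the sequence alone.

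Neurod6 (chr6:55677822-55681263, minus strand), a close relative expressed in pyramidal neurons, had H4K8ac over the gene and at distal sites. Peaks under its own symbol, 19 of 24 of them distal intergenic, covered 13.1 and 11.1 kb in the exercised and sedentary SIT lists, 8.30 and 8.54 kb in the left lists, and 4.93 and 13.7 kb in the right lists. These sums leave out peaks over the gene that carry another symbol. A region of 11824 bp at chr6:55674965-55686788 was in 6 of 6 lists, and 1539 bp inside the gene were in all of them. The start itself lay in a peak in 3 of 6 lists. In the exercised SIT and sedentary left lists the peak over the gene, 9953 and 10208 bp wide, carried the symbol of the neighbouring gene Gm3279, so that the count by symbol held only the distal peaks of Neurod6 there. With peaks of any symbol, the region over the gene was covered by 9953 and 5272 bp in the exercised and sedentary SIT lists, 6205 and 10208 bp in the left lists, and 4183 and 7362 bp in the right lists. The exercised list was thus the higher in SIT and the lower in both other arms over the gene itself. The 19 distal peaks of Neurod6 in the 6 lists began 30193 to 101507 bp past the start.
Neurod6 window within the gene: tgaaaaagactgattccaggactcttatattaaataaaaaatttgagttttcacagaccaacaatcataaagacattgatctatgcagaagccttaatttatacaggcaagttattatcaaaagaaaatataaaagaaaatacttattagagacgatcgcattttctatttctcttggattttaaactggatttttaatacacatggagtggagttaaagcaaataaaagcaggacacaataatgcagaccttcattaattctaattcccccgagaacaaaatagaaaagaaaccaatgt
These 300 bases (chr6:55679776-55680075, plus strand) are the centre of the stretch under H4K8ac in 6 of 6 lists, lie outside annotated exons and held none of the 3 motifs. The whole shared stretch had 37.5% G and C, lower than the median of 46.3% over all such stretches, and a CpG content of 0.592 of that expected from its bases, where the median was 0.267.

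Bcl11a (chr11:24078056-24174123, plus strand), a zinc finger repressor that guides cortical projection neurons and is best known for silencing fetal globin in blood, had the most H4K8ac under its own symbol of the 9. It covered 115.3 and 79.3 kb in the exercised and sedentary SIT lists, 87.4 and 107.7 kb in the left lists and 68.8 and 105.5 kb in the right lists. The exercised list was again the higher in SIT and the lower in both other arms. From 48.6 to 83.2% of the gene with the 3 kb before it lay under peaks, more than for any other long gene of the set. In bases rather than as a share, H4K8ac of any symbol over the gene and flank came to 48.2 to 82.5 kb for Bcl11a and 64.1 to 110.4 kb for the longer Nfib, which was above Bcl11a in 5 of 6 lists. Bcl11a ranked above 99.9% of the genes with H4K8ac by summed bases. Its widest single peak was 22994 bp, in the exercised SIT list, against a 95th percentile of 4294 bp for that list.

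Of the 14 merged H4K8ac regions of Bcl11a, 4 were in 6 of 6 lists. They followed each other from position 24048483, upstream of the gene, to position 24171728, just short of its end. The widest spanned 50647 bp at chr11:24121082-24171728 and the next 40184 bp at chr11:24080848-24121031. Starts met this acetylation in some lists. None of the 6 GENCODE starts lay in a peak in the sedentary SIT and exercised right lists, 1 did in each of 3 lists and 5 did in the exercised SIT list, and of 13 RefSeq starts 7, between positions 24076564 and 24077515, lay in a peak in 4 of 6 lists, 4 in 1 list and 2 in none.
Bcl11a intron window: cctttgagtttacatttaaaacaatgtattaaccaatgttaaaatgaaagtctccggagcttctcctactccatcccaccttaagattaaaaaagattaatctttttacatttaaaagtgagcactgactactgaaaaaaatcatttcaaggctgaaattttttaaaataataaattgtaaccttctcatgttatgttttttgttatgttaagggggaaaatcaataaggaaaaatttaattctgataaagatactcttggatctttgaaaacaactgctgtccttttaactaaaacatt
This window (chr11:24093693-24093992, plus strand) is the centre of the longest stretch of the gene shared by 6 of 6 lists, 9450 bp with 41.6% G and C, and held none of the 3 motifs.

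Bcl11b (chr12:107910403-108003602, minus strand), the paralog that marks subcerebral projection neurons and dentate granule cells, differed from it. H4K8ac covered 33.9 and 14.5 kb in the SIT lists (exercised, then sedentary), 25.3 and 26.0 kb in the left lists and 13.1 and 11.8 kb in the right lists. The exercised list was the higher in SIT and in the right arm, and Bcl11b was the only gene of the 9 of which the latter held. Peaks lay over 7.81 to 25.9% of the gene with its 3 kb flank, and 0 of its 22 merged regions were in all 6 lists. The widest of those in 5 lists, 11093 bp at chr12:107990861-108001953 in introns and the promoter, was missing from the exercised right list. No start of a GENCODE transcript lay in an H4K8ac peak, and the nearest peak edge was 1461 to 4493 bp away.

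Fezf2 (chr14:12342094-12348189, minus strand) specifies corticospinal neurons in the deep cortical layers and was the only gene of the set at which peaks of both marks overlapped. H4K8ac covered 8.62 and 6.17 kb in the SIT lists (exercised, then sedentary), 3.39 and 11.3 kb in the left lists and 3.22 and 7.03 kb in the right lists. All 6 lists touched 1 region of 11843 bp, chr14:12336337-12348179, over the gene and past its end, but no base of it was in all of them. H3K27me3 was listed once, in the sedentary right list, as a promoter peak of 3735 bp at chr14:12341770-12345504. In that arm 43.6% of the genes with H3K27me3 in either list were in the sedentary list alone and 3.12% in the exercised list alone. In the same sedentary right arm 2 H4K8ac peaks of Fezf2 overlapped this H3K27me3 peak. One, of 1476 bp at chr14:12343319-12344794, lay wholly inside it, and the other shared 152 bp with it. No other H4K8ac peak of the 9 genes overlapped an H3K27me3 peak of its own arm and condition, where 0.117 to 0.700% of all H4K8ac peaks did.

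Zbtb18 (chr1:177442351-177450764, plus strand), a repressor needed for the division and migration of cortical progenitors and also called RP58, had an acetylated stretch beyond its end. H4K8ac covered 66.2 and 32.0 kb in the SIT lists (exercised, then sedentary), 26.5 and 47.1 kb in the left lists, and 27.2 and 46.9 kb in the right lists. A region of 15192 bp at chr1:177448976-177464167, from the end of the gene into intergenic sequence, was in 6 of 6 lists with 12476 to 15192 bp covered in each, and 10396 bp of it were in all 6. This was the longest shared stretch of the 9 genes, against a median of 1056 bp over the 3042 H4K8ac regions with such a stretch. Of 9 RefSeq starts, the one at position 177445821 lay in H4K8ac in 4 of 6 lists and 4 others in 1 or 2 lists. The first start of the gene met no peak of either mark in any list, and the promoter of that start (chr1:177442101-177442350, plus strand) is shown beside the centre of the shared stretch (chr1:177456366-177456665, plus strand) for contrast.
Zbtb18 first promoter: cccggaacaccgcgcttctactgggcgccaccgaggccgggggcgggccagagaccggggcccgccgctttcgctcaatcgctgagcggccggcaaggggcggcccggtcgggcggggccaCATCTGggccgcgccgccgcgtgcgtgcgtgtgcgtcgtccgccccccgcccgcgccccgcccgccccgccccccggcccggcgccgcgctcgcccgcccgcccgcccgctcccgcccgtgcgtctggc
Zbtb18 downstream window: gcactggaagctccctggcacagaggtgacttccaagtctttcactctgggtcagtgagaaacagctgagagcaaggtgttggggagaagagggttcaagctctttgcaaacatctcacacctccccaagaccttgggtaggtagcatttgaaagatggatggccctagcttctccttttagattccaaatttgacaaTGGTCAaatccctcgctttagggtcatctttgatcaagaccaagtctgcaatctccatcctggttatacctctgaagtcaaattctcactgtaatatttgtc
This first promoter was 84% G and C with 1.09 of the expected CpG content and held 1 CATCTG. The shared stretch was 42.0% G and C with 0.285 of the expected CpG content, and its central window held 1 BCL11A motif.

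Zbtb20 (chr16:42875881-43642602, plus strand), which sets the identity of hippocampal pyramidal neurons, is the longest gene of the set, at 766.7 kb. H4K8ac listed under its symbol covered 49.1 and 26.1 kb in the SIT lists (exercised, then sedentary), 8.42 and 22.5 kb in the left lists and 22.4 and 35.6 kb in the right lists. The exercised left value was the lowest of the 6. Peaks of any symbol lay over 3.75 to 11.9% of the gene, and of the 148 peaks over it in the 6 lists 68 carried the symbol of a gene inside or beside it, most often Gm19522 with 21. Of 34 merged regions 2 were in 6 of 6 lists: 23040 bp at chr16:43497112-43520151, in introns and at late starts, and 11482 bp at chr16:42904732-42916213, over the starts near position 42907397. No base of the region of 23040 bp was in all 6 lists, while 1931 bp of the other were.

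Nfia (chr4:97772734-98118874, plus strand) and Nfib (chr4:82290173-82705750, minus strand) encode NFI proteins, which bind TTGGC half-sites as dimers. For Nfia, H4K8ac covered 75.1 and 31.7 kb in the SIT lists (exercised, then sedentary), 32.7 and 61.9 kb in the left lists, and 36.1 and 46.8 kb in the right lists. For Nfib it covered 55.7 and 31.4 kb in the SIT lists, 25.6 and 52.5 kb in the left lists, and 27.8 and 52.5 kb in the right lists. In both genes the exercised list was the higher in SIT and the lower in the other arms. Nfia had 31 merged regions, 6 of them in 6 of 6 lists and the widest of these 13929 bp at chr4:97866919-97880847. Nfib had 34, 4 of them in 6 of 6 lists and the widest 14216 bp at chr4:82489280-82503495, just past the cluster of starts that 10 of its 12 GENCODE transcripts use. Of these 4, the regions at chr4:82294825-82299690 and chr4:82479298-82488183 had no base that was in all 6 lists.

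The widest acetylated stretch of Nfia was not listed under its name. In the first 25 kb after the start at position 97777608, 62.2 to 79.7% of the bases were under H4K8ac in the 6 lists, in single peaks of up to 19916 bp, and 0 of these peaks carried the symbol Nfia. They were listed as E130114P18Rik, a gene on the opposite strand that GENCODE draws from beside this start to beyond the far upstream starts of Nfia. Likewise the 25 kb before the main starts of Nfib were 37.9 to 59.5% covered by H4K8ac in peaks listed under other symbols, and over the whole of Nfib 44 peaks of 269.4 kb in all carried the symbol Gm11266. None of these peaks is among the 663.

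H3K27me3 lay at the far upstream starts of both NFI genes. For Nfib it covered 24267 and 10978 bp in the SIT lists (exercised, then sedentary), 15.3 and 10.5 kb in the left lists and 5.56 and 16.8 kb in the right lists, all of it in 2 merged regions that were each in 6 of 6 lists. One, 10917 bp at chr4:82697140-82708056, lay over the start of the outermost Nfib transcript, at position 82705750 and 200.0 kb before the main starts. A stretch of 2969 bp was in all 6 lists. The other, 15776 bp at chr4:82754865-82770640, lay farther upstream in intergenic sequence, with its peaks at distances of -62821 to -49115 bp from that start and 1934 bp in all 6 lists. The nearest H4K8ac peak to any of these H3K27me3 peaks was 6142 bp away, and from the main starts of Nfib the nearest H3K27me3 peak was 191361 to 197528 bp away.

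At Nfia the same arrangement was found outside the peaks that carry its name. RefSeq places a start of Nfia at position 97581943, 190.8 kb before the GENCODE gene and within E130114P18Rik. An H3K27me3 peak of 6912 to 14666 bp covered it in 6 of 6 lists, each listed as E130114P18Rik, while the nearest H4K8ac peak was 52070 to 168953 bp away. From the start at position 97777608 the next 25 kb had no H3K27me3 in any list. The Nfia promoter of RefSeq (chr4:97581693-97581942, plus strand) and the centre of the stretch of the upstream Nfib region shared by 6 lists (chr4:82765415-82765714, plus strand) are given because they lay under H3K27me3 in every list.
Nfia far promoter: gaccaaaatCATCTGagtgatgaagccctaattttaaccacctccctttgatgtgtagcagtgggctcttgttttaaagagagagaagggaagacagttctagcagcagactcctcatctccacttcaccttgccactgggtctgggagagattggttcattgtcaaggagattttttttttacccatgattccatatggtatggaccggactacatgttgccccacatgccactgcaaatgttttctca
Nfib upstream window: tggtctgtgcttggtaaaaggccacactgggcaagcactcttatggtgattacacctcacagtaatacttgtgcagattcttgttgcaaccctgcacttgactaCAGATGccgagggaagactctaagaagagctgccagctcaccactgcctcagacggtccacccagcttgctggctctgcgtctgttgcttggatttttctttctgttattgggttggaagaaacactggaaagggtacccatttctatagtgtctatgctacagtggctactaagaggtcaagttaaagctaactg
Each held the E-box CAGATG once on either strand, which 14.4% of RefSeq promoters and 19.8% of the central windows of 4203 shared H3K27me3 stretches held. The Nfia promoter had 0.0798 of the expected CpG content, against a median of 0.374 over RefSeq promoters, and the Nfib stretch had 0.211, above 36.2% of shared H3K27me3 stretches.

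**Figure D2:**
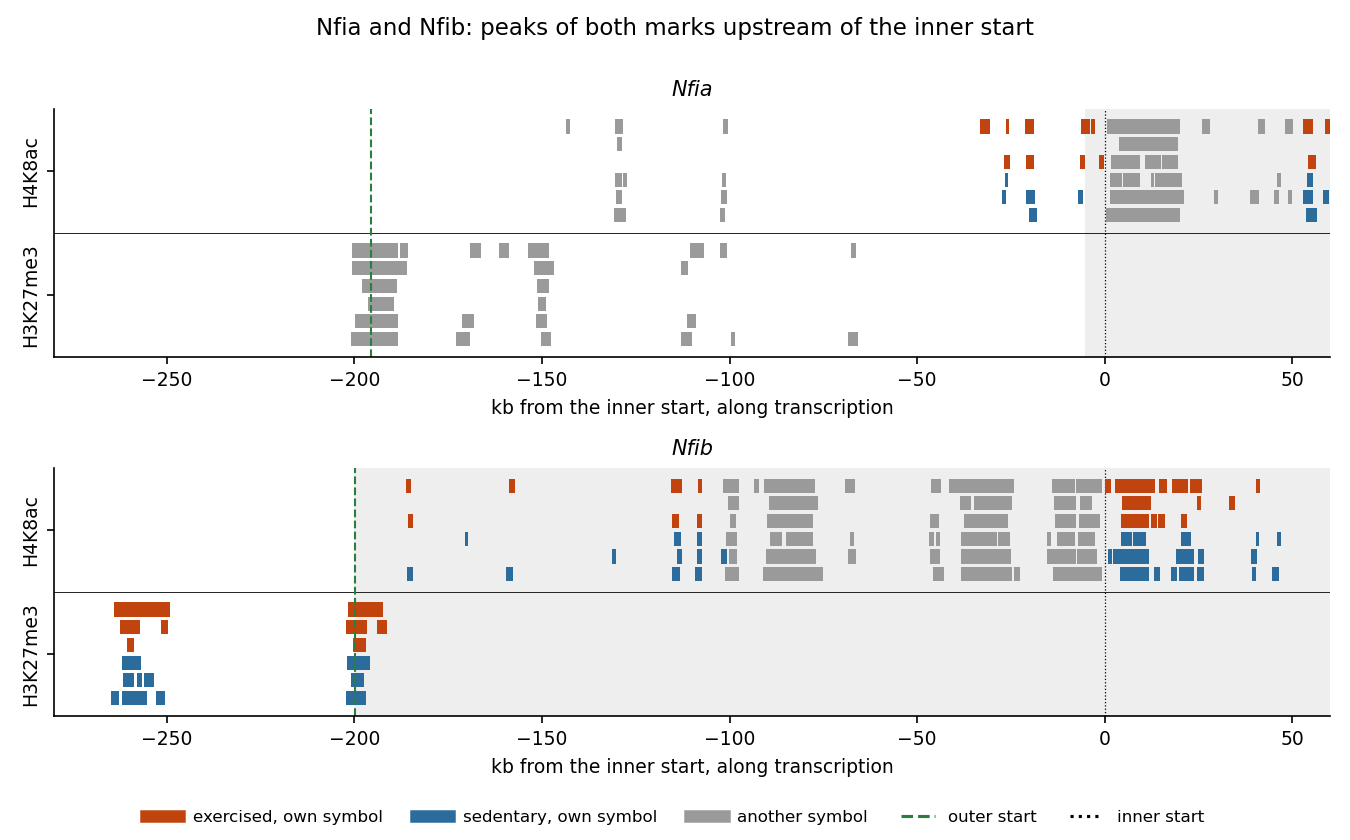
Peaks of both marks at Nfia and Nfib by distance in kb from the inner start in the direction of transcription; rows and colours are those of the map of all 9 genes, the dashed line is the outer start and the dotted line the inner one. H3K27me3 peaks of all 6 lists cover the outer start of each gene, where no H4K8ac peak lies, and H4K8ac peaks of all 6 lists lie around the inner start, many of them in grey because they carry another symbol.

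Peaks of the 9 genes recurred between lists. Of their 166 merged H4K8ac regions 23, or 13.9%, were in 6 of 6 lists against 5.99% of the 63514 regions of the genome, and 37.3% were in 1 list against 49.9%. By a stricter measure added after seeing the data, 17 of the 23 held a base that was in all 6 lists. Of the 3807 regions of the genome in 6 of 6 lists, 79.9% held such a base. Peaks of the 9 genes were also wider than average, as given above, and the part of width in this count was not tested. For H3K27me3, 2 of 3 regions were in all 6 lists against 16.7% of 27261. Between arms, 84.1% of the 69 exercised left H4K8ac peaks of these genes were overlapped by the exercised SIT list, as were 79.8% of all peaks of that list, and 39.1% of the 138 exercised SIT peaks were overlapped by the exercised left list, against 25.4% of all. In sedentary mice 47.3% of 129 left peaks were overlapped by the SIT list and 69.9% of 103 SIT peaks by the left list, against 41.5 and 51.7% of all.

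**Figure D3:**
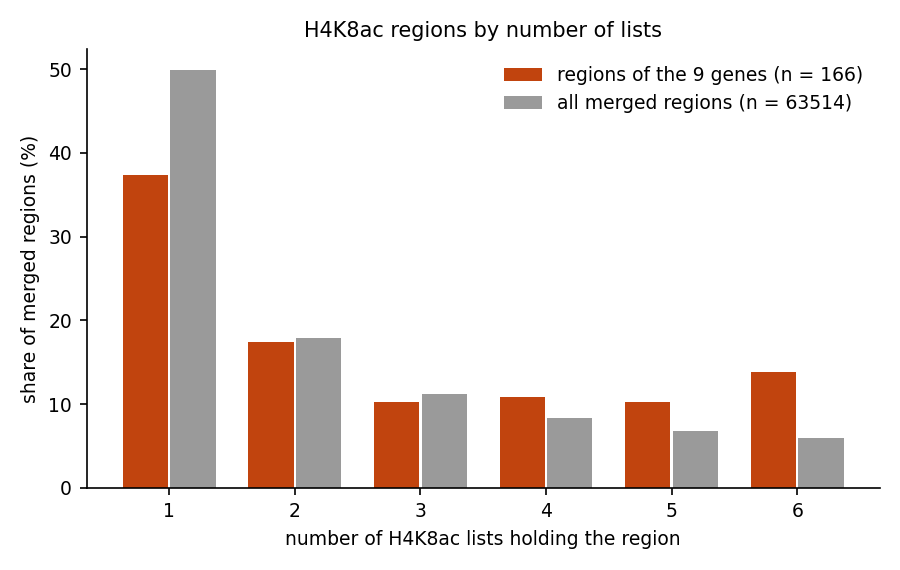
Share of merged H4K8ac regions, in %, by the number of the 6 H4K8ac lists that hold them, for the 166 regions of the 9 genes (red) and all 63514 regions (grey). Regions in 6 of 6 lists made up 13.9% of the former and 5.99% of the latter.

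The comparison of exercised with sedentary mice asked whether wheel running from postnatal day 21 to 41 went with other marks at these genes. No gene of the 9 was listed for H4K8ac in 1 condition alone in any arm. Among all genes with H4K8ac in either list, 27.5% were in the exercised list alone and 10.1% in the sedentary list alone in SIT, 3.58 and 51.9% in the left arm, and 9.14 and 36.7% in the right arm. For H3K27me3 these shares were 41.4 and 1.02% in SIT and 18.5 and 9.13% in the left arm, where no gene of the set was in 1 list alone.

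Summed over the 9 genes, H4K8ac covered 432.2 kb in the exercised and 236.8 kb in the sedentary SIT list, 1.83 times as much. In the left arm it covered 225.1 and 346.1 kb, a ratio of 0.650, and in the right arm 211.5 and 331.7 kb, a ratio of 0.638. The sum was thus higher in exercised SIT and lower in exercised left and right lists, as were the lists as a whole. All 9 genes were above 1 in SIT, 9 were below 1 in the left arm and 8 in the right arm, while of all genes in both lists 81.2, 18.5 and 14.9% were above 1. With peaks of any symbol in the regions of each gene, 9 were above 1 in SIT and 8 were below it in the left arm, where Neurod2 had a ratio of 1.04, and 8 in the right arm. Only regions that hold a peak of the gene's own symbol count here. This leaves out the E130114P18Rik peaks at Nfia and many Gm11266 peaks at Nfib. Over each gene with its 3 kb flank, peaks of any symbol covered 27.2% of Nfia in exercised and 13.6% in sedentary SIT. These shares were 13.9 and 24.0% in the left arm and 14.0 and 18.5% in the right arm. For Nfib they were 26.4 and 16.9, 15.3 and 23.7, and 16.0 and 24.2% in the same order. As a share of all bases covered in its list, the 9 genes took 0.539% in exercised and 0.510% in sedentary SIT, 0.873 and 0.525% in the left arm and 0.863 and 0.591% in the right arm, so that on this scale the exercised list was the higher in each arm.

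Calls by size followed the lists. At least 1.5 times more H4K8ac in exercised than in sedentary was found for 6 of 9 genes in SIT, where 54.6% of all genes in both lists passed, for 0 of 9 in the left arm with 6.93% and for 0 of 9 in the right arm with 4.36%. At least 1.5 times less was found for 0 of 9 in SIT with 6.34% of all genes, for 5 of 9 in the left arm with 62.5% and for 7 of 9 in the right arm with 61.4%. Counting peaks of any symbol in the regions of each gene, these were 7 higher in SIT, 6 lower in the left arm and 6 lower in the right arm. Neurod6 then had ratios of 1.59 in SIT and 0.523 in the left arm. By own-symbol peaks, the shares of the 9 genes that passed were of the same order as those of all genes. For peaks of any symbol the shares of all genes are not given. By bases covered, no member was higher in exercised lists in all 3 arms, where 1.86% of 7640 genes were, and none was lower in all 3, where 12.5% were. As a share of the bases of its list, Neurod2, Bcl11b, Nfia, Nfib and Zbtb18 were each higher in exercised in all 3 arms. Each gave an exact sign-flip permutation p = 0.25, the smallest that 3 arms can give. The share of all genes for which this held is not given.

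**Figure D4:**
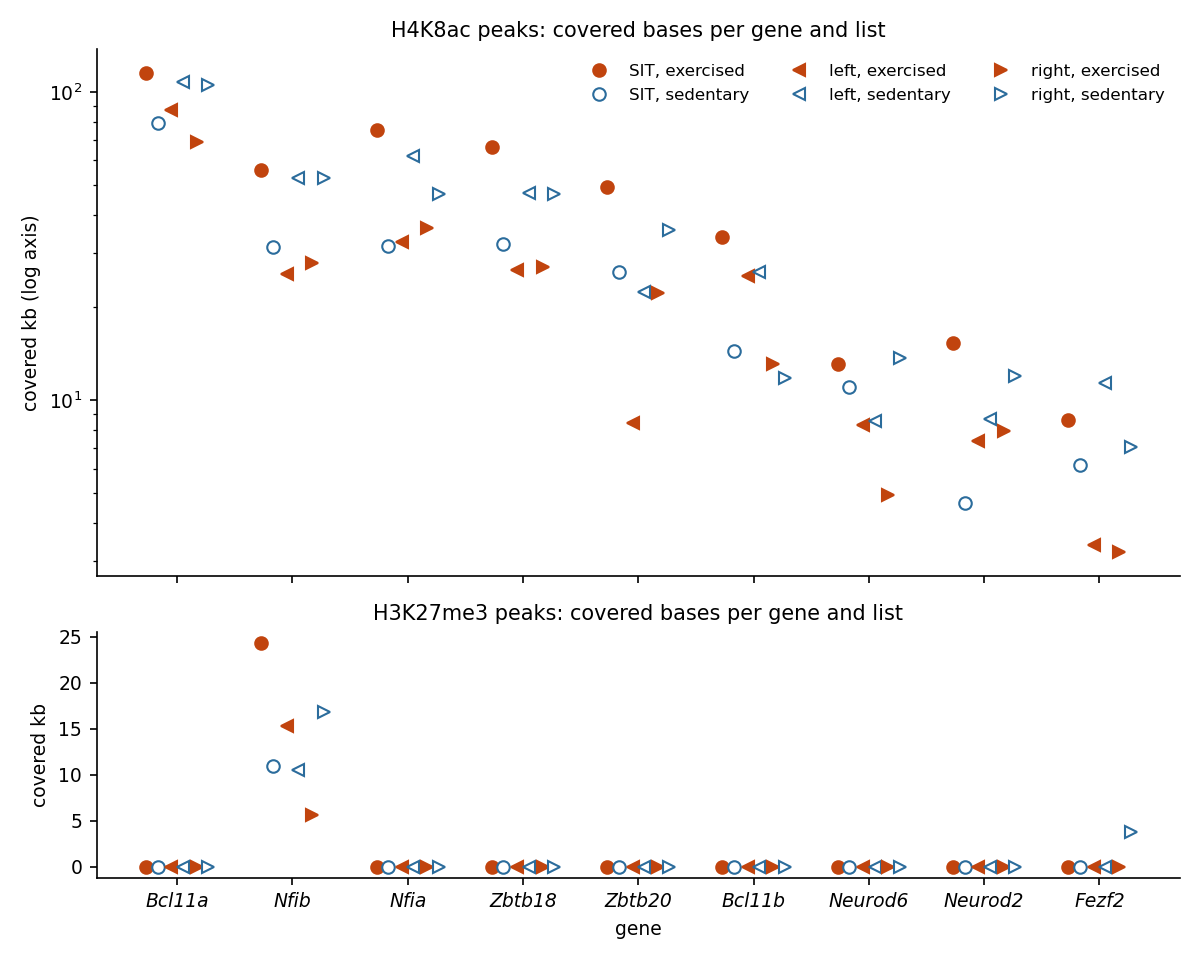
Bases covered by peaks listed under each gene's symbol, in kb, with a log axis for H4K8ac above and a linear axis for H3K27me3 below; 1 point is 1 pooled list, filled red for exercised and open blue for sedentary, with circles for SIT and triangles for left and right. Exercised SIT lies above sedentary SIT in all 9 genes for H4K8ac, and H3K27me3 is above 0 at Nfib in 6 lists and at Fezf2 in 1.

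The ratio of the whole list was exceeded by 6 of 9 genes in SIT, 7 in the left arm and 8 in the right arm, where 43.8, 68.7 and 65.6% of all genes in both lists exceeded it. In SIT they ran from 1.18 for Neurod6 to 3.31 for Neurod2, with a median of 1.88 against 1.59 for all genes in both lists. In the left arm they ran from 0.299 for Fezf2 to 0.974 for Bcl11b, with a median of 0.563 against 0.541, and in the right arm from 0.360 for Neurod6 to 1.11 for Bcl11b, with a median of 0.628 against 0.562. These are ratios of own-symbol peaks. With peaks of any symbol in the same regions Neurod2 had the highest ratio in SIT, 2.43, and in the left arm, 1.04, and Bcl11b the highest in the right arm, 1.11. The positions of peaks overlapped to unequal degrees. The bases of a gene's own peaks shared by both conditions, as a part of those in either, were 0.579 to 0.677 for Bcl11a and 0.149 to 0.268 for Bcl11b, and the lowest value was 0.0450, for Zbtb20 in the left arm. This value leaves out peaks listed as Gm19522 at chr16:42904732-42916213. Peaks of any symbol covered 8238 bp of that region in the exercised and 9018 bp in the sedentary left list. In the left arm the ratio of Zbtb20 was 0.375 with its own peaks and 0.581 with any symbol.

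**Figure D5:**
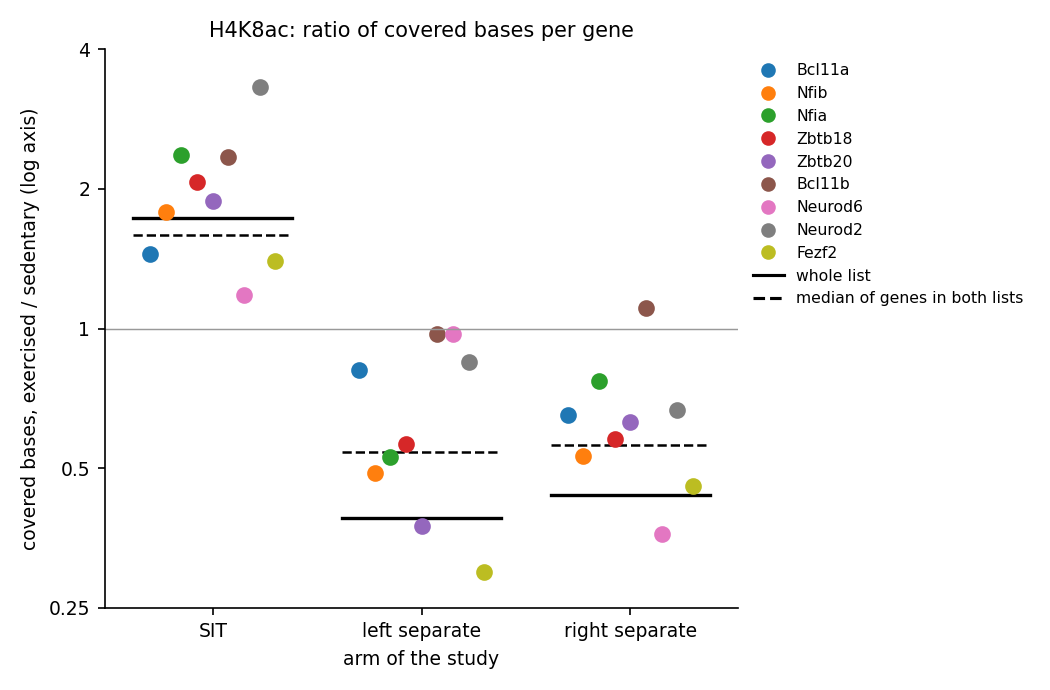
Ratio of bases covered by H4K8ac, exercised over sedentary, in peaks under the gene's own symbol, on a log axis for each of the 9 genes in each arm; solid lines give the ratio of the whole lists and dashed lines the median over genes in both lists. All 9 points are above 1 in SIT, 9 are below it in the left arm and 8 in the right arm.

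The arms were the only repeats of the contrast, and the smallest p that 3 arms can give is 0.25, so no difference could pass 0.05. The mean difference over 3 arms, exercised minus sedentary, ran from -9.05 kb ± 28.9 (SD, n = 3 arms, exact two-sided sign-flip permutation p = 0.5) for Nfib to 6.69 kb ± 11.1 (SD, n = 3 arms, exact permutation p = 0.5) for Bcl11b. Fezf2 gave -3.10 kb ± 5.23 (exact permutation p = 0.5), and the other 6 genes gave p = 0.75 or p = 1.0 in the same exact permutation test. For H3K27me3, Nfib gave 2.29 kb ± 12.4 (exact permutation p = 0.75) and Fezf2 -1.25 kb ± 2.16 (exact permutation p = 1.0). These p-values do not show that the conditions were alike. Between arms, H3K27me3 at Nfib went from 2.21 times more in exercised than in sedentary SIT, and 1.46 times more in the left arm, to 0.332 times in the right arm, beside 1.88, 1.25 and 0.360 for the whole lists. The part of list length in these values was not tested.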

How the data were processed

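The 60 samples, CUT&RUN-seq against H4K8ac or H3K27me3 or with IgG, were put in 18 groups by antibody, condition and arm from the labels. IgG samples are not analysed here. Per the paper's methods and the submitters' processing notes, the authors checked reads with FastQC 0.11.9, aligned them to mm10 (GRCm38) with Bowtie2 2.4.1, called peaks with SEACR (stringent, 0.01) and annotated them with ChIPseeker 1.8.6, with promoters 3 kb on either side of a start, and symbols from biomaRt. The methods exclude 4 exercised H4K8ac libraries for their false discovery rate, 3 of separate isolation and 1 of SIT, and the paper counts 2 sedentary and 3 exercised mice behind a comparison of peaks. Which libraries stand behind each list, and how they were combined, is not given in the sources used here. The deposited lists give each peak's start, end and width in bp, a class, a transcript with its distance to the start and a symbol, with no count, signal or p-value. Starts are given as listed and may be 1 base off, since 1 peak starts at 0.

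The 9 genes, the lists of other genes and the tests were chosen with earlier results of these data known. Each of the 9 genes was looked up in every list. For each gene and mark the region in the largest number of lists was described by position, and the widest of them where several tied. Chosen after their values were seen were the further regions of Neurod2, Bcl11a, Zbtb20 and, for H3K27me3, Nfib, the H4K8ac peak of Fezf2 inside its H3K27me3 peak, the peaks under other symbols, the printed sequences and the RefSeq starts. Covered bases were summed over a gene's peaks. Peaks overlapping by 1 bp were merged over the 6 lists of a mark. Conditions were compared within arms and by an exact sign-flip permutation test over 3 arms. The peaks of the 9 genes name 31 transcripts, and GENCODE M21, from which gene spans were taken, holds 31 of them under the same version. Sequences are from RefSeq GRCm38.p6, whose promoter table matched 8 of 9 genes and has no entry for Nfib. Tested on simulated data, interval sums were right in 20 of 20 cases. Python 3.11.15, numpy 2.4.6, pandas 2.3.3, scipy 1.17.1, pyfaidx 0.9.0.4 and matplotlib 3.10.9 were used.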

Additional observations from a re-analysis of the deposited data

Results flagged for a closer look

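The direction of exercised against sedentary mice differed between arms. Bases covered by H4K8ac over the 9 genes were 1.83 times as many in exercised mice in SIT, 0.650 times in the left arm and 0.638 times in the right arm. For H3K27me3 listed under the genes' own symbols, which is Nfib and Fezf2, the ratios were 2.21 in SIT, 1.46 in the left arm and 0.271 in the right arm. With 1 pooled list per condition and arm the difference between arms was not tested, and it was also present in the whole lists, whose ratios were 1.73, 0.391 and 0.437 for H4K8ac and 1.88, 1.25 and 0.360 for H3K27me3.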

How the results depend on the processing

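No paired analysis was possible because the lists do not separate libraries, and leaving out 1 library was not run for the same reason. Of 44 alternative values of the ratio summed over the 9 genes, 36 kept their direction and stayed within 1.5 times. Promoter peaks alone gave 3.22 for H4K8ac in SIT. As shares of all covered bases of a list the H4K8ac ratios were 1.06 in SIT, 1.66 in the left arm and 1.46 in the right arm, the last pair reversed, and those of H3K27me3 were 1.18 in SIT and 0.754 in the right arm. Without distal intergenic peaks, or with assignment by overlap, the H3K27me3 ratio of the left arm was 2.45. With the widest 50% of each list it could not be computed. Without Bcl11a, an alternative added after seeing the data, the H4K8ac ratios were 2.01, 0.577 and 0.631. With peaks of any symbol in the regions of a gene, also added after seeing the data, they were 1.82, 0.658 and 0.649.

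The 9 genes in all 6 H4K8ac lists became 5 with promoter peaks alone, 7 without distal intergenic peaks and 8 by overlap with the gene. The gene in all 6 H3K27me3 lists became 0 with the widest 50% of each list. Regions in 6 of 6 lists went from 23 to 6 for H4K8ac and from 2 to 0 for H3K27me3 when each list had to cover 50% of a region. H3K27me3 regions were 0 among the widest 50% and 1 without distal peaks. Shares over all genes and all regions are not given for these settings, so these counts have no background beside them.

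Mean differences of single genes changed sign in 21 of 77 alternatives, none with a p under 0.25. With promoter peaks alone they were -0.395 kb for Neurod2, 0.421 for Neurod6, 0.324 for Nfib and 0.115 for Zbtb18. Without distal peaks they were -0.395 kb for Neurod2, 0.421 for Neurod6 and 0.114 for Zbtb18, and by overlap -0.395 kb for Neurod2 and -1.17 for Nfia. With the widest 50% they were 2.30 kb for Zbtb20, -2.17 for Nfia and 0.107 for Zbtb18, and with equal numbers of peaks 6.89 kb for Zbtb20, 2.65 for Nfib and 3.67 for Zbtb18. As parts of all covered bases, scaled as parts per 1e6, they were 24.7 for Neurod6, 803.7 for Bcl11a, 104.4 for Zbtb20, 138.5 for Nfib and 239.9 for Zbtb18. The difference of Zbtb20 was 0.343 kb when peaks of any symbol in its regions counted. The cause was not tested. The depth behind each list is not given, and an absent peak says only that none was called.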

Other observations

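RefSeq lists 64 transcript starts for the 9 genes, of which 41 lay in an H4K8ac peak in at least 1 list, whatever the symbol of the peak. The same share over all RefSeq starts is not given, so the counts of starts here describe these genes alone. The 7 starts in H4K8ac in 6 of 6 lists were all of Zbtb20, between positions 42907397 and 42908622 of chromosome 16. In at least 1 list H4K8ac held 11 of 13 starts of Bcl11a, 11 of 15 of Zbtb20, 6 of 12 of Bcl11b, 5 of 9 of Zbtb18, 3 of 4 of Nfib, 2 of 6 of Nfia, 2 of 2 of Fezf2, 1 of 1 of Neurod6 and 0 of 2 of Neurod2. In H3K27me3 lay 2 starts, both of Nfia: the one at position 97581943 in 6 lists and the one at position 97578066 in 4.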
